A study of Mus musculus with 4 samples.

Results

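Chemokines and their receptors were examined in sorted mammary cells, as all rows of the deposited gene table whose symbols name a Ccl, Cxcl, Ccr, Cxcr or Ackr gene with a number, together with Cx3cl1, Cx3cr1, Xcl1, Xcr1 and Ccrl2. This gave 63 of 24442 genes, of which 39 encode ligands and 24 encode receptors. The cells were taken from mammary tissue of female mice, 5 weeks of age, that carry the Lgr6-eGFP-CreErt2 allele, which places a green fluorescent protein and an inducible Cre recombinase at the Lgr6 locus. Both populations carry this allele. One was sorted as Lgr6 positive and the other as Lgr6 negative, with 2 RNA sequencing libraries of each and 4 in all. The labels describe a sort of LIN- cells and do not name the lineage markers, the Lgr6-negative gate or the animals behind each replicate. The p-values therefore measure only the spread between these libraries, which may be technical.

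Chemokines are small secreted proteins, named by the spacing of their first cysteines, that guide the movement of leukocytes by binding G protein-coupled receptors on the cell surface. Epithelium, stroma and endothelium make some of them constitutively, whereas many others are induced in leukocytes and other cells through the transcription factor NF-κB. Atypical chemokine receptors bind chemokines without the usual G protein signal, and several of them take up or transport their ligands. In the mammary gland, chemokines are known for drawing macrophages and other leukocytes to the growing ducts.

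The libraries held 6819127 and 6995568 counts in Lgr6-positive cells and 6920996 and 7167465 counts in Lgr6-negative cells, of which the ribosomal RNA precursor Rn45s took between 14.5% and 30.8%. Counts of Lgr6 itself were 172 and 655 in Lgr6-positive libraries, against 3 and 10 in Lgr6-negative libraries, with an adjusted p of 0.0510 that missed the threshold. Levels are given as CPM, the usual unit of counts relative to the scaled library total. Although the cells are described as LIN-, Lgr6-negative libraries held much RNA of leukocyte genes. The summed level of 7 monocyte genes was 1119 and 792 CPM in Lgr6-positive libraries, against 4455 and 4922 CPM in Lgr6-negative libraries, and that of 5 natural killer cell genes was 0.368 and 0 CPM, against 249 and 294 CPM. Most of the monocyte sum in Lgr6-positive libraries came from Fn1, at 861 and 438 CPM, against 1486 and 1551 CPM in Lgr6-negative libraries. Ace added 165 and 235 CPM, against 497 and 584 CPM. The summed level of 7 luminal epithelial genes ran the other way, at 3304 and 3331 CPM in Lgr6-positive libraries against 142 and 110.2 CPM in Lgr6-negative libraries. In such bulk samples, fewer cells of a type and less RNA per cell cannot be told apart.

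Sequence upstream of several members is shown first, because neighbouring ligand genes that carry the same motif differed in how their RNA was distributed between the populations. The window was 250 bases before each start site (RefSeq, GRCm38.p6), and both strands were searched for the consensus of NF-κB, a motif of 10 letters. Of 63 members, 47 had a window and 12 of these held the motif, a share of 25.5%, against 8.23% of 27025 genes with a window. Only members with a window could be searched, and these are split here by result of the comparison given below. Among them, the motif was found in 0 of 4 that were higher in Lgr6-positive cells, in 2 of 7 that were lower and in 5 of 15 that did not pass the test. Lower members without a window, which were not searched, were Ccl4, Ccl5 and Ccr7. Bases -130 to -31 from the start are printed for 5 members with a match and for 2 members without, Cxcl12 and Ackr3, which were the members higher in Lgr6-positive cells under every setting tried. Capitals mark the bases covered by the motif on either strand.
Cxcl1: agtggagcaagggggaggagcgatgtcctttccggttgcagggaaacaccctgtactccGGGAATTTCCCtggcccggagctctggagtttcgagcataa
Cxcl2: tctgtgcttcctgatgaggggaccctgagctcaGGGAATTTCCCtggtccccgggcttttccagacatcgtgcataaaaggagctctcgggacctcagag
Cxcl3: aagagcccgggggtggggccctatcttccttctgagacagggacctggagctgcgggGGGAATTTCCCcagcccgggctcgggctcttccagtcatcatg
Cxcl10: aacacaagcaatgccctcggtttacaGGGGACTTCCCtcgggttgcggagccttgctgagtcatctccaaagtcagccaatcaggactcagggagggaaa
Ccrl2: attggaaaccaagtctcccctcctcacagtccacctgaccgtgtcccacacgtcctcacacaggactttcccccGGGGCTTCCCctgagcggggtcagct
Cxcl12: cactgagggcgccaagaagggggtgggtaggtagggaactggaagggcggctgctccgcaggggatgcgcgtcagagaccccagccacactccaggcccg
Ackr3: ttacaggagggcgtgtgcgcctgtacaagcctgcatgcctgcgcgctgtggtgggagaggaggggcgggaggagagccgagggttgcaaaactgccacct

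These stretches lie at chr5:90891115-90891214 (Cxcl1, plus strand), chr5:90903769-90903868 (Cxcl2, plus), chr5:90785971-90786070 (Cxcl3, plus), chr5:92348920-92349019 (Cxcl10, minus), chr9:111057549-111057648 (Ccrl2, minus), chr6:117168405-117168504 (Cxcl12, plus) and chr1:90203850-90203949 (Ackr3, plus). Cxcl1, Cxcl2 and Cxcl3 share the same run, GGGAATTTCCC, whose match on the printed strand starts 71, 97 and 73 bases before the start site. Cxcl10 has a further match, GGGAAATTCC, outside the printed stretch. A match describes letters only and was not tested as a binding site.

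Of the 63 members, 38 had enough counts to be tested, 24 ligands and 14 receptors. In edgeR's quasi-likelihood test over 11661 genes, with a Benjamini-Hochberg adjusted p under 0.05 as the threshold, 4 members were higher in Lgr6-positive cells (2 ligands and 2 receptors) and 10 were lower (5 ligands and 5 receptors). Over all tested genes, 4.49% were higher and 4.57% lower, 9.06% in either direction. A gene with enough counts in both libraries of 1 population is tested even where the other has none, so such members had to differ, and the counts of members are given as a description. The median log2 fold change, Lgr6-positive over Lgr6-negative, was -0.27 for ligands and -4.59 for receptors, against 0.10 for all tested genes. With genes without counts in 1 population set to a bound against 3 counts per library, these medians were -0.27, -4.23 and 0.10. By family, CXC ligands had 2 of 10 tested genes higher and 1 lower (median 1.35), CC ligands 3 of 12 lower and none higher (median -2.23), CC receptors 2 of 6 lower and none higher (median -3.76) and CXC receptors 1 of 3 lower and none higher (median -4.52). The summed level of all ligands was 1141 and 1199 CPM in Lgr6-positive libraries, against 2736 and 2795 CPM in Lgr6-negative libraries, and that of all receptors was 274 and 226 CPM, against 2416 and 2255 CPM. Monocyte, natural killer and epithelial genes differed between the same populations, as given above, and their part in these results was not tested.

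**Figure D1:**
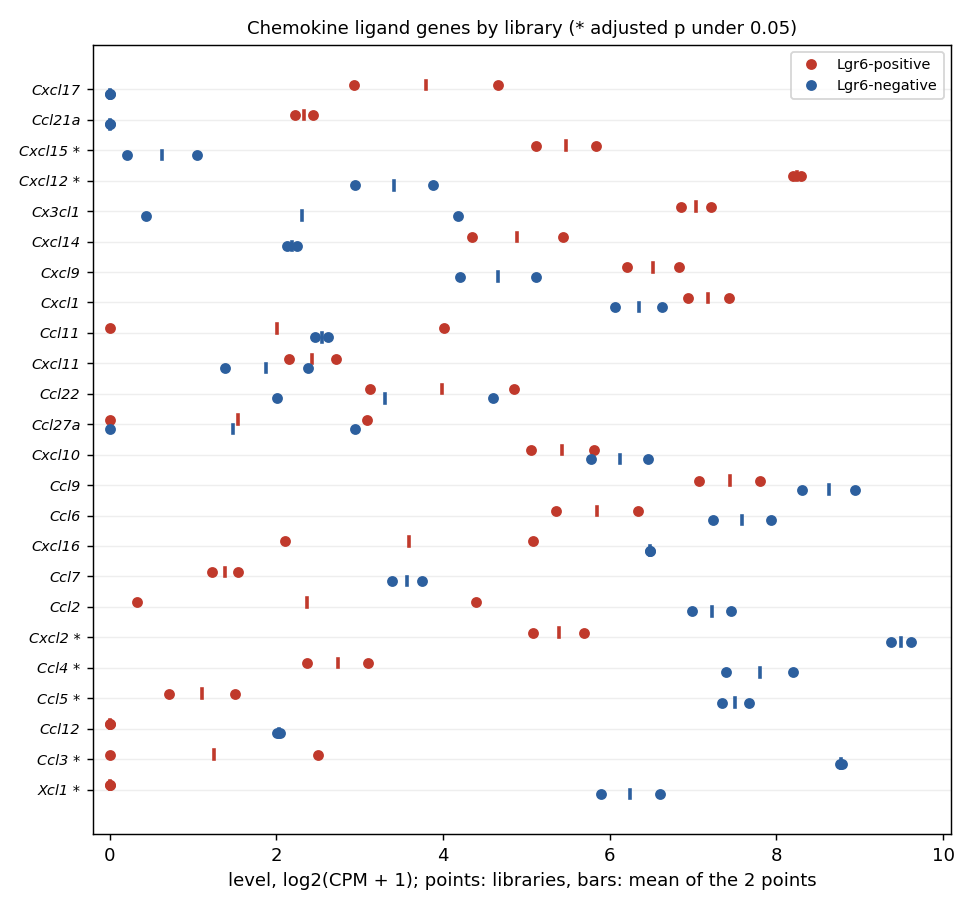
Level of each tested ligand gene in each library, as log2(CPM + 1) on the horizontal axis, with genes ordered by fitted fold change; red points are Lgr6-positive and blue points Lgr6-negative libraries, short bars are the means of the 2 points, and asterisks mark an adjusted p under 0.05. Cxcl12 and Cxcl15 carry an asterisk near the top, with red points to the right of blue ones, and Cxcl2, Ccl4, Ccl5, Ccl3 and Xcl1 carry one near the bottom, with blue points to the right.

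Of the 2 ligands higher in Lgr6-positive cells, Cxcl12 had the smaller p-value and the higher CPM and Cxcl15 the larger fold change. Cxcl12 encodes the ligand of the receptors CXCR4 and ACKR3, which is made by stromal and endothelial cells in many tissues. Cxcl12 was at 293 and 314 CPM in Lgr6-positive libraries, against 6.71 and 13.7 CPM in Lgr6-negative libraries. Both Lgr6-positive libraries lay far above both Lgr6-negative ones, with a log2 fold change of 4.90 (SE, standard error, 0.61, adjusted p = 0.00226), and the gene passed under all 12 alternative settings (4.46 to 5.48). Cxcl15, a mouse chemokine known from lung epithelium and named lungkine, was at 33.7 and 56.0 CPM in Lgr6-positive libraries, against 0.156 and 1.07 CPM in Lgr6-negative libraries, which held 1 and 6 counts. The log2 fold change was 6.17 (SE 1.57, adjusted p = 0.0430). It no longer passed without Lgr6-positive replicate 2 (5.73, adjusted p = 0.0818) or Lgr6-negative replicate 1 (5.36, 0.0727), and its fold change was 8.01 without Lgr6-negative replicate 2, with adjusted p-values between 1.85e-05 and 0.0818 over the alternatives. In the same libraries, 6 endothelial genes summed to 1196 and 1483 CPM in Lgr6-positive cells, against 172 and 113 CPM in Lgr6-negative cells, and 5 fibroblast genes to 614 and 363 CPM, against 21.7 and 59.7 CPM. The part of these cell types in the level of Cxcl12 was not tested.

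A further 6 ligands had both Lgr6-positive libraries above both Lgr6-negative libraries without passing the test. With those that passed, 8 of 24 tested ligands had this order, against 30% of all tested genes. Cx3cl1, the membrane-bound ligand of CX3CR1 that can be shed from epithelium and endothelium, was at 114 and 147 CPM in Lgr6-positive libraries, against 17.2 and 0.356 CPM in Lgr6-negative libraries. The Lgr6-negative libraries were far apart, at 110 and 2 counts, and the log2 fold change of 3.89 (SE 1.34) had an adjusted p of 0.108. Cx3cl1 passed without a filter, in DESeq2 (adjusted p = 0.00898) and with the replicate block, but in no other setting that kept all libraries. Its log2 fold change was 8.44 without Lgr6-negative replicate 1 and 2.91 without Lgr6-negative replicate 2, where it did not pass. The highest adjusted p of any alternative was 0.118. Cxcl17, a chemokine of mucosal epithelium, had 54 and 191 counts in Lgr6-positive libraries, against none in Lgr6-negative libraries. Set against a floor of 3 counts per library, it was at least 30.8-fold higher (adjusted p = 0.0731). It passed without a filter, in DESeq2 and in limma-voom, but in no other setting that kept all libraries. The floor covers counting error only. Cxcl14, which many epithelia make constitutively, was at 19.4 and 42.3 CPM in Lgr6-positive libraries, against 3.74 and 3.38 CPM in Lgr6-negative libraries (log2 fold change 3.11, SE 1.39, adjusted p = 0.208). It passed in DESeq2 alone (0.0361), in a range up to 0.618. Ccl21a, a ligand of CCR7 from lymphatic endothelium, had 30 and 35 counts, against none (at least 8.10-fold, adjusted p = 0.124). Of its namesakes, Ccl21b had no counts in any library and Ccl21c had 0 and 1, against none. Whether reads were assigned rightly among them was not tested.

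The interferon-induced ligands of CXCR3, which draw activated T and natural killer cells, did not pass. Cxcl9 was at 72.6 and 113 CPM in Lgr6-positive libraries, against 33.5 and 17.4 CPM in Lgr6-negative libraries (log2 fold change 1.86, SE 0.79, adjusted p = 0.182). Cxcl10, with 55.1 and 32.3 CPM against 53.8 and 87.1 CPM, and Cxcl11, with 3.43 and 5.58 CPM against 4.21 and 1.60 CPM, overlapped between the populations. Of the exonic bases of Cxcl11, 41.7% also lie in another annotated gene, so its reads may be mixed. Cxcl11 is also annotated as a polymorphic pseudogene, and whether its RNA encodes a working ligand in these mice was not tested. The receptor gene Cxcr3 had 0 and 1 counts in Lgr6-positive libraries and 11 and 13 in Lgr6-negative libraries.

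The ligand with the smallest p-value among those lower in Lgr6-positive cells was Cxcl2, which encodes a neutrophil attractant that acts through CXCR2. Cxcl2 was at 50.6 and 32.9 CPM in Lgr6-positive libraries, against 662 and 782 CPM in Lgr6-negative libraries (log2 fold change -4.11, SE 0.43, adjusted p = 0.00115). Its neighbour Cxcl1, a neutrophil attractant acting on the same receptor, was at 121 and 171 CPM in Lgr6-positive libraries, against 66.0 and 97.8 CPM in Lgr6-negative libraries (0.84, SE 0.56, adjusted p = 0.421). Per kilobase of exon, the level of Cxcl1 was 2.64 and 5.74 times that of Cxcl2 in Lgr6-positive libraries, against 0.110 and 0.138 times in Lgr6-negative libraries. The ratio thus lay above 1 in both libraries of the first population and below 1 in both of the other, although both genes carry the run GGGAATTTCCC shown above. Cxcl3, the third of these relatives, had 0 counts in both Lgr6-positive libraries and 300 and 1 in the Lgr6-negative libraries, and the unequal pair kept it from being tested. The receptor of this group, Cxcr2, had 1 and 0 counts in Lgr6-positive libraries, against 1 and 20 in Lgr6-negative libraries, and Cxcr1 had none in any library.

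The inflammatory CC chemokines Ccl3, Ccl4 and Ccl5, which draw monocytes and T cells, were all lower in Lgr6-positive cells. Ccl3 had 38 and 0 counts in Lgr6-positive libraries, against 2786 and 2484 in Lgr6-negative libraries (4.66 and 0 CPM, against 435 and 442 CPM). The log2 fold change of Ccl3 was -7.54 (SE 1.37, adjusted p = 0.0115), and all of its Lgr6-positive counts came from replicate 1, so that it was fitted at -6.58 without Lgr6-positive replicate 2 and at -14.51, with no counts left, without replicate 1. Ccl4 was at 4.17 and 7.60 CPM in Lgr6-positive libraries, against 168 and 293 CPM in Lgr6-negative libraries (-5.29, SE 0.71, adjusted p = 0.00300). Ccl5 was at 1.84 and 0.634 CPM, against 162 and 202 CPM (-7.18, SE 0.87, adjusted p = 0.00202, and -8.13 without Lgr6-positive replicate 1). These genes passed under all 12 alternatives, and no Lgr6-positive library came near a Lgr6-negative one.

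Xcl1, the C-type chemokine that natural killer and CD8 T cells make and that acts on XCR1, was at 0 counts in both Lgr6-positive libraries, against 617 and 328 in the Lgr6-negative libraries. It was at least 207-fold lower against 3 counts per library (adjusted p = 0.00538), and 18.7% of its exonic bases lie in another annotated gene. Its receptor gene Xcr1, a mark of cross-presenting dendritic cells, likewise had no counts in Lgr6-positive libraries and only 43 and 27 in Lgr6-negative libraries (at least 15.4-fold lower, adjusted p = 0.102, between 0.0467 in limma-voom and 0.500 over the alternatives). The natural killer genes Ncr1, Klrb1c and Klrd1 were at 0 counts in both Lgr6-positive libraries too, and T cell genes summed to 7.97 and 0 CPM there, against 97.2 and 105 CPM in Lgr6-negative libraries. Their part in the level of Xcl1 was not tested.

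A further 6 ligands had both Lgr6-positive libraries below both Lgr6-negative libraries without passing the test. With those that passed, 11 of 24 tested ligands had this order, against 25.9% of all tested genes. Ccl2, the main ligand of CCR2 and an attractant of monocytes, was at 20.1 and 0.253 CPM in Lgr6-positive libraries, against 175 and 126 CPM in Lgr6-negative libraries. The Lgr6-positive libraries held 164 and 2 counts, and with this spread the log2 fold change of -3.88 (SE 1.41) had an adjusted p of 0.124. It passed without a filter, in DESeq2 and with the replicate block, but in no other setting that kept all libraries (adjusted p = 0.193 with library size alone). Its fold change was -9.12 and -2.93 on leaving out Lgr6-positive replicate 1 or 2. Leaving out a library removes the spread within its pair, so passing there is no support. Ccl7 and Ccl12, which also act on CCR2 in the mouse, had 11 and 15 counts and no counts in Lgr6-positive libraries, against 80 and 53 and against 20 and 17 in Lgr6-negative libraries (adjusted p = 0.418 and 0.121). Cxcl16, the membrane-bound ligand of CXCR6, was at 32.9 and 3.29 CPM, against 88.6 and 88.7 CPM (-2.29, SE 1.09, adjusted p = 0.240). Cxcl16 passed in no setting that kept all libraries, and its fold change was -4.75 without Lgr6-positive replicate 1.

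Ccl9 and Ccl6, related mouse chemokines made by myeloid cells, were abundant in both populations. Ccl9 was at 222 and 134 CPM in Lgr6-positive libraries, against 492 and 316 CPM in Lgr6-negative libraries (log2 fold change -1.18, SE 0.45, adjusted p = 0.132). Ccl6 was at 40.1 and 79.7 CPM in Lgr6-positive libraries, against 150.4 and 244 CPM in Lgr6-negative libraries (-1.72, SE 0.59, adjusted p = 0.107). Ccl9 and Ccl6 passed in no setting that kept all libraries. The fold change was -1.60 for Ccl9 without Lgr6-positive replicate 1 and -2.32 for Ccl6 without Lgr6-positive replicate 2. Per kilobase of exon, Ccl9 made up 17.7% and 10.0% of all ligand RNA in Lgr6-positive libraries, against 7.77% and 4.66% in Lgr6-negative libraries. The monocyte genes Csf1r, at a log2 fold change of -3.92 (SE 0.46, adjusted p = 0.00168), and Ly6c2, at -6.84 (SE 1.13, adjusted p = 0.00779), were lower in the same cells. Smaller changes in the same list were those of Fn1, at -1.22 (SE 0.35, adjusted p = 0.0643), and Ace, at -1.43 (SE 0.38, adjusted p = 0.0497). Of 5 tested macrophage genes, none passed. In 3 of them both Lgr6-positive libraries lay above both Lgr6-negative libraries, and in 1 below.

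The other tested ligands overlapped between the populations. Ccl11, the eosinophil attractant eotaxin, had 123 and 0 counts in Lgr6-positive libraries, against 29 and 29 in Lgr6-negative libraries. Ccl22, a ligand of CCR4 from dendritic cells and macrophages, had 63 and 220 counts, against 149 and 17. Ccl27a had 61 and 0 counts, against 43 and 0, and has a close copy in Ccl27b, with 1 and 0 counts against 10 and 0, so that reads could be split between them. Their log2 fold changes of 0.64 for Ccl11, 0.44 for Ccl22 and 0.15 for Ccl27a changed sign under some settings.

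**Figure D2:**
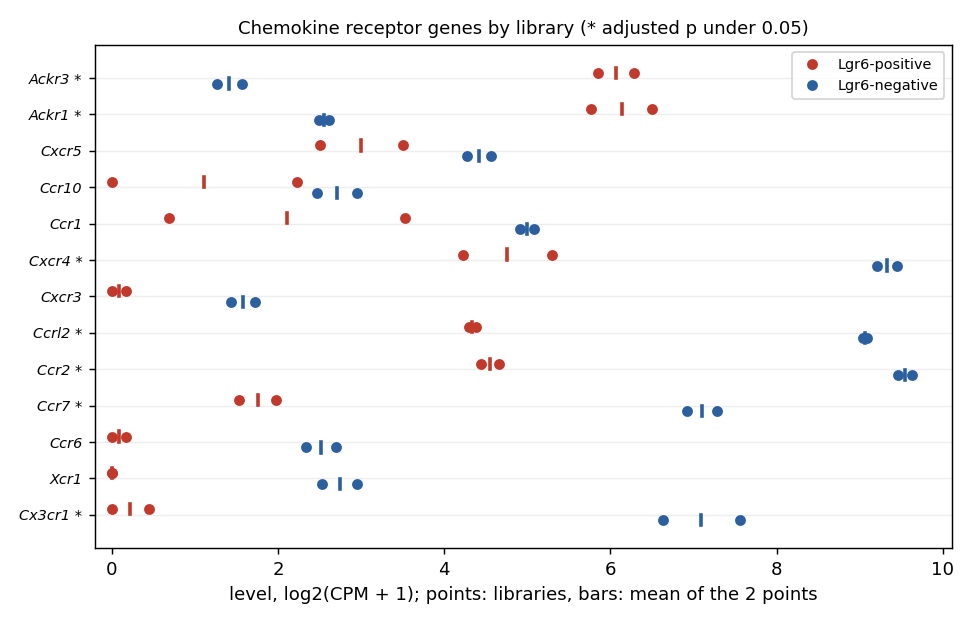
Level of tested receptor genes in each library, as log2(CPM + 1) on the horizontal axis, with genes ordered by fitted fold change; red points are Lgr6-positive and blue points Lgr6-negative libraries, short bars are the means of the 2 points, and asterisks mark an adjusted p under 0.05. Ackr3 and Ackr1 at the top have their red points to the right, and the other receptors drawn have both red points to the left of both blue points.

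Receptors that signal through G proteins were lower in Lgr6-positive cells wherever they passed the test. Ccr2, the receptor of Ccl2 that marks classical monocytes, was at 20.7 and 24.3 CPM in Lgr6-positive libraries, against 788 and 702 CPM in Lgr6-negative libraries. The adjusted p of 5.28e-04 was the smallest of all members, at a log2 fold change of -5.05 (SE 0.42). The deposited counts of Ccr2 were fractional in 3 of 4 libraries, so some reads fit more than 1 gene. Cxcr4, the signalling receptor of Cxcl12, was at 38.3 and 17.7 CPM in Lgr6-positive libraries, against 695 and 589.8 CPM in Lgr6-negative libraries (-4.52, SE 0.52, adjusted p = 0.00153, and -5.18 without Lgr6-positive replicate 1). Ccr7, which guides dendritic cells and lymphocytes towards Ccl19 and Ccl21, was at 2.94 and 1.90 CPM, against 155 and 120.3 CPM (-5.82, SE 0.84, adjusted p = 0.00420). Cx3cr1, the receptor of Cx3cl1 on monocytes and macrophages, had 3 and 0 counts in Lgr6-positive libraries, against 627 and 1057 in Lgr6-negative libraries. That is a ratio of 748 between Lgr6-negative and Lgr6-positive cells, with a 95% counting interval from 256 to 3633 (adjusted p = 0.00334), and the fitted log2 fold change of -9.45 was -12.89 without Lgr6-positive replicate 1, which held those counts, and -8.56 without replicate 2. These 4 genes passed under all 12 alternatives.

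A further 7 tested receptors did not pass. For each of them both Lgr6-positive libraries lay below both Lgr6-negative libraries in CPM. With those that passed, 12 of 14 tested receptors had this order, against 25.9% of all tested genes. Ccr1, a receptor of Ccl3 and Ccl5, had 5 and 83 counts in Lgr6-positive libraries, against 187 and 184 in Lgr6-negative libraries (adjusted p = 0.394), and Cxcr5, the B cell receptor of Cxcl13, had 38 and 82 counts, against 145 and 103 (adjusted p = 0.625). Ccr6, the receptor of Ccl20, had 0 and 1 counts, against 26 and 31 (adjusted p = 0.164). Ccr10 had 30 and 0 counts, against 29 and 38 (adjusted p = 0.753). Its order held in CPM (3.68 and 0, against 4.52 and 6.75) and not in counts. Xcr1 and Cxcr3 are described above, at adjusted p-values of 0.102 and 0.249.

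Atypical receptors differed among themselves. Ackr3, which binds Cxcl12 and Cxcl11 and clears them from the surroundings, was at 76.9 and 56.5 CPM in Lgr6-positive libraries, against 1.40 and 1.96 CPM in Lgr6-negative libraries (log2 fold change 5.30, SE 1.15, adjusted p = 0.0234), and passed under all 12 alternatives. Ackr1, the Duffy antigen, which binds many CC and CXC chemokines on venular endothelium, was at 89.9 and 53.3 CPM in Lgr6-positive libraries, against 5.15 and 4.62 CPM in Lgr6-negative libraries (3.87, SE 1.02, adjusted p = 0.0492). This call stood just inside the threshold and failed on leaving out Lgr6-positive replicate 1 (adjusted p = 0.128), Lgr6-negative replicate 1 (0.0812) or 2 (0.108), in limma-voom (0.107) and with the replicate number as a block (0.0513), in a range from 9.65e-05 to 0.128. Exons of Cadm3 cover 25.7% of the exonic bases of Ackr1, so reads there cannot be assigned with certainty. Ccrl2, which binds the attractant chemerin, was at 18.6 and 19.9 CPM, against 542 and 526 CPM (-4.79, SE 0.45, adjusted p = 7.67e-04), and thus moved opposite to Ackr1 and Ackr3. Of the 2 atypical receptors below the filter, Ackr2 had 12 and 0 counts in Lgr6-positive libraries, against 1 and 0, and Ackr4 had 18 and 2 counts, against none.

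The endothelial genes Cdh5, at a log2 fold change of 3.39 (SE 0.55, adjusted p = 0.00699), and Vwf, at 4.37 (SE 0.70, adjusted p = 0.00693), were higher in the libraries in which Ackr1 and Ackr3 were high. Of the 6 genes in the endothelial list, 4 were higher and none was lower. The part of endothelial cells in the levels of Ackr1 and Ackr3 was not tested.

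**Figure D3:**
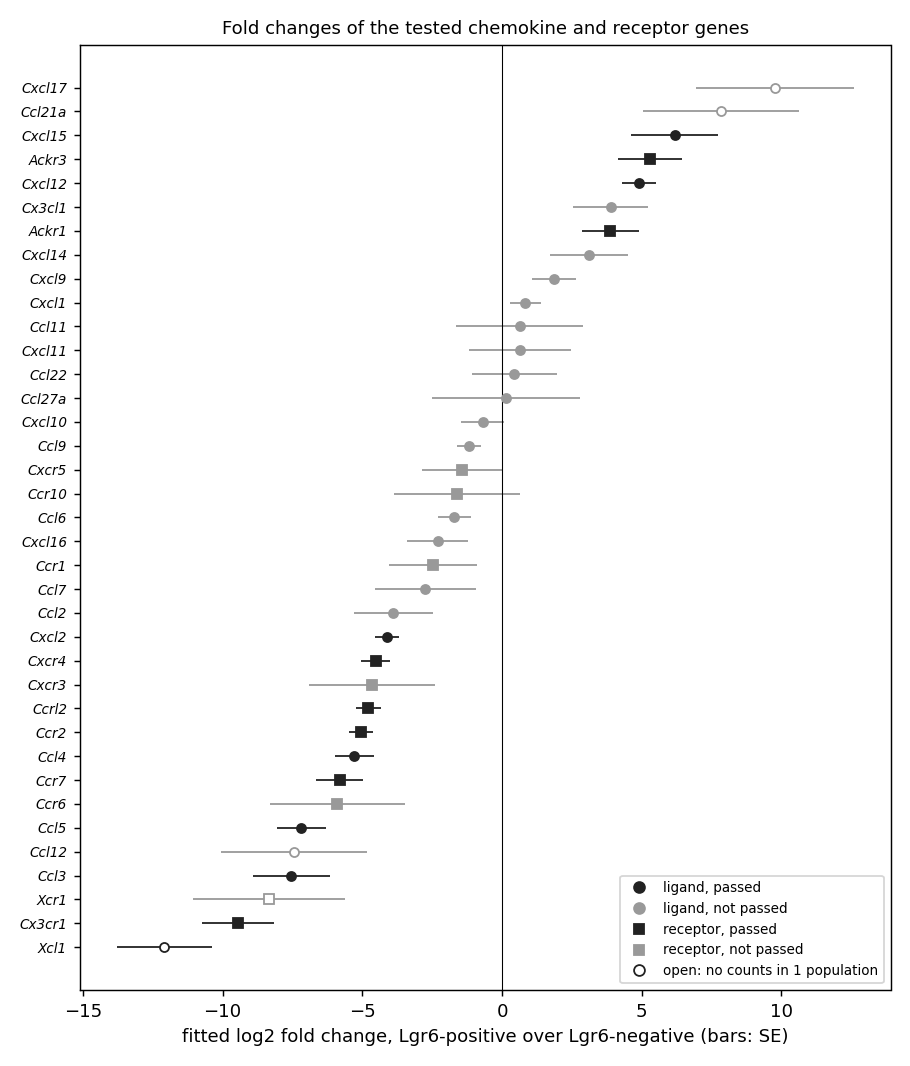
Fitted log2 fold change of tested members, Lgr6-positive over Lgr6-negative, on the horizontal axis, with bars of 1 SE; circles are ligands, squares receptors, black symbols passed an adjusted p of 0.05, grey ones did not, and open symbols had no counts in 1 population, so that their fitted value is no bound. Black symbols lie right of 0 for Cxcl15, Ackr3, Cxcl12 and Ackr1 and left of 0 for 10 members, the first Cxcl2 and the last Xcl1. Grey symbols of Cxcr3, Ccr6, Ccl12 and Xcr1 lie among these.

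Set side by side, some ligand and receptor genes had their higher level in different populations and some in the same one. Not all pairs were compared. Cxcl12 was higher and its receptor gene Cxcr4 lower in Lgr6-positive cells, whereas Ackr3, the atypical receptor of Cxcl12, was higher there. Per kilobase of exon, the level of Ackr3 was 1.09 and 1.72 times that of Cxcr4 in Lgr6-positive libraries, against 0.00109 and 0.00179 times in Lgr6-negative libraries. For Cx3cl1 and Cx3cr1, the receptor gene was lower in Lgr6-positive cells and the ligand gene, though at 114 and 147 CPM there against 17.2 and 0.356 CPM, did not pass. Both genes of a pair had their higher level in Lgr6-negative cells for Ccl2 and Ccr2 and for Xcl1 and Xcr1. The same held for Ccl3 and Ccr1 and for Ccl5 and Ccr1. Of each of these pairs only 1 gene passed the test. Ccl21a and Ccr7 lay on opposite sides, with 30 and 35 counts of the ligand gene in Lgr6-positive libraries alone and with Ccr7 lower in Lgr6-positive cells.

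**Figure D4:**
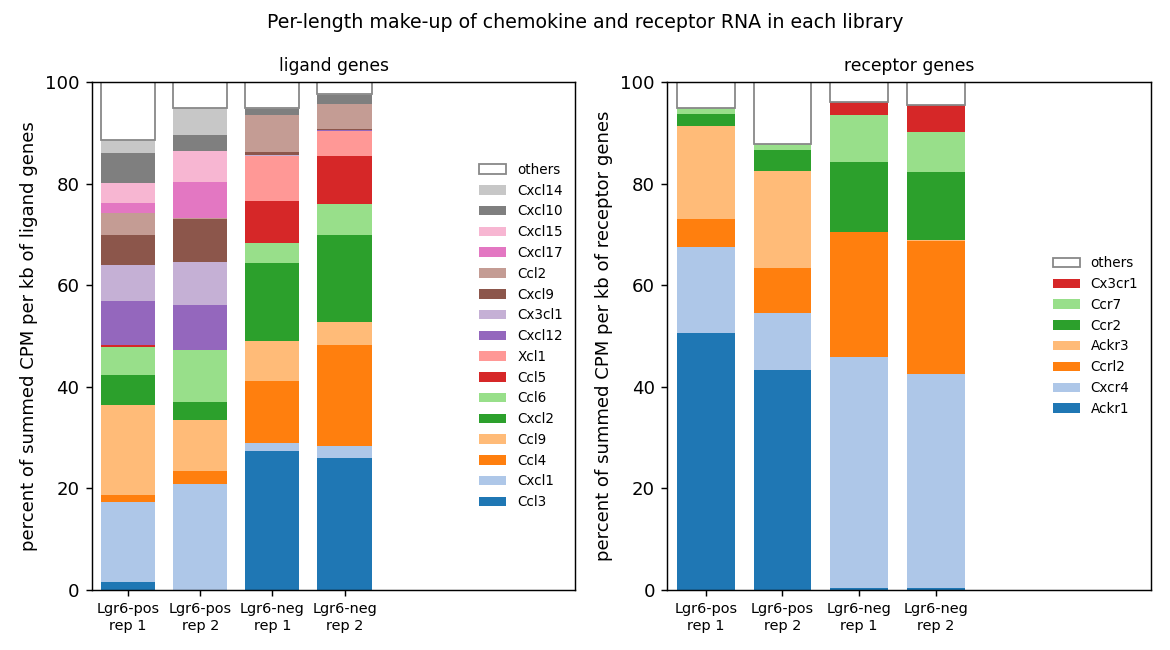
Make-up of ligand RNA (left) and receptor RNA (right) in each library, as the percent of the summed CPM per kilobase of exon, with Lgr6-positive libraries in the first pair of columns of each panel; genes reaching 5% in any library are coloured and all others are white. Ackr1 makes up 50.7% and 43.4% of receptor RNA in Lgr6-positive libraries, and Cxcr4 45.4% and 42.2% in Lgr6-negative libraries.

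Per kilobase of exon, the make-up of chemokine RNA differed between the populations. In Lgr6-positive libraries, Ccl9 made up 17.7% and 10.0% of ligand RNA, Cxcl1 15.7% and 20.8%, Cxcl12 8.71% and 8.76% and Ccl6 5.43% and 10.1%, with Ccl9 first in replicate 1 and Cxcl1 first in replicate 2. Lgr6-negative libraries were led by Ccl3, at 1.48% and 0% of ligand RNA in Lgr6-positive libraries against 27.3% and 25.9% in Lgr6-negative libraries, with Cxcl2 at 5.95% and 3.63% against 15.4% and 17.0%, and Ccl4 at 1.53% and 2.62% against 12.2% and 19.9%. Among receptors, Ackr1 and Ackr3 together dominated the Lgr6-positive libraries. Ackr1 took 50.7% and 43.4% of receptor RNA there, against 0.433% and 0.425% in Lgr6-negative libraries, and Ackr3 took 18.2% and 19.3%, against 0.0495% and 0.0755%. Cxcr4 took 16.8% and 11.2% in Lgr6-positive libraries, against 45.4% and 42.2% in Lgr6-negative libraries, where Ccrl2 and Ccr2 were next, at 5.68% and 8.75% against 24.7% and 26.2% for Ccrl2 and at 2.43% and 4.11% against 13.8% and 13.4% for Ccr2. Of the 63 members, 62 matched a single annotated gene and entered these shares, all but Ccl21c.

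**Figure D5:**
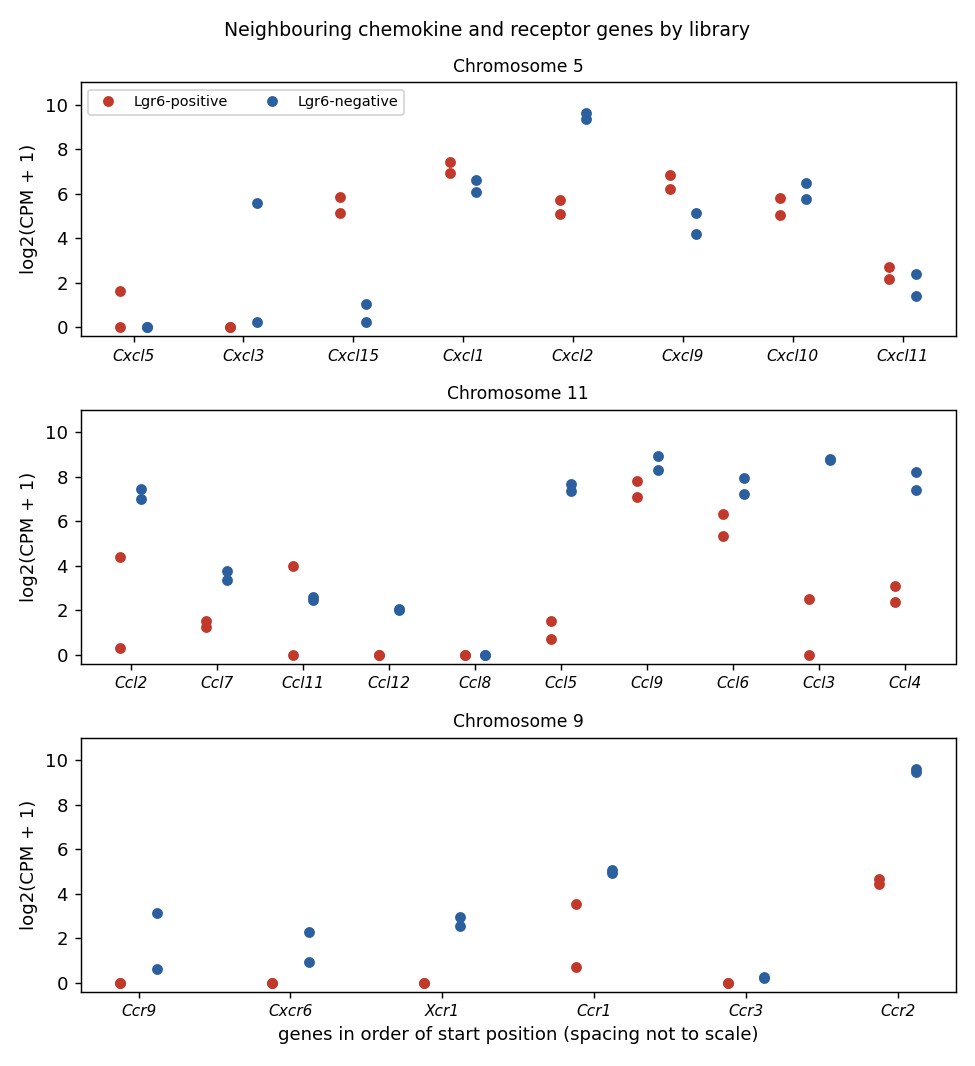
Level of neighbouring ligand genes on chromosomes 5 and 11 and receptor genes on chromosome 9 in each library, as log2(CPM + 1) on the vertical axis, with genes in order of their start positions along the horizontal axis and spacing not to scale; red points are Lgr6-positive and blue points Lgr6-negative libraries. On chromosome 5 red points lie above blue ones for Cxcl15, Cxcl1 and Cxcl9 and below them for Cxcl3 and Cxcl2, whereas on chromosome 9 no red point lies above a blue one of the same gene.

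Most chemokine genes lie in a few clusters, and the chromosome 5 cluster held genes of both directions. In GRCm38 coordinates, Cxcl15 spans chr5:90794534-90803067, Cxcl1 chr5:90891241-90893115 and Cxcl2 chr5:90903871-90905938, all on the plus strand. Cxcl15 was higher and Cxcl2 lower in Lgr6-positive cells, with Cxcl1 between them and not past the threshold. The platelet chemokine genes Pf4 and Ppbp, which belong to the same family under older names, had 114 and 150 counts and 56 and 0 counts in Lgr6-positive libraries, against none and against 0 and 1 in Lgr6-negative libraries. Pf4 did not pass (adjusted p = 0.0634), and Ppbp, named after its counts were seen, was below the filter. Among defining platelet genes, Gp9 and Treml1 had no counts in any library. Itga2b had 20 and 51 counts in Lgr6-positive libraries, against 0 and 2, whereas Gp1bb had none there, against 1 and 6.

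On chromosome 11, Ccl5 (chr11:83525778-83530518), Ccl3 (chr11:83647844-83649355) and Ccl4 (chr11:83662584-83664683) were lower in Lgr6-positive cells, while Ccl9 and Ccl6 between them did not pass. Ccl2, Ccl7, Ccl11, Ccl12 and Ccl8 form a separate group on that chromosome, in which no gene passed and Ccl8 had no counts. On chromosome 9, Ccr2 (chr9:124101950-124113557) was lower and its neighbours Ccr1 and Xcr1 did not pass.

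Below the filter were 25 members, of which 9 had no counts after rounding in any library. These were Ccl1, Ccl8, Ccl21b, Ccl24, Ccl25, Ccl26, Ccl28, Ccr1l1 and Cxcr1. Ccl28, a chemokine of mucosal and glandular epithelium, was thus not detected. At this depth, 3 counts correspond to 0.368 and 0.380 CPM in Lgr6-positive libraries, against 0.468 and 0.533 CPM in Lgr6-negative libraries. These values cover counting error only and are no detection limit. Libraries of 1 population could differ by more, as for Cxcl13 at 20.9 and 0 CPM in Lgr6-negative libraries. Several others had counts from 1 library only. Ccl20, an epithelial attractant of CCR6-bearing cells, had 42 and 0 counts in Lgr6-positive libraries, Cxcl5 17 and 0 and Ccl17 11 and 0, with none in Lgr6-negative libraries. Cxcl13, which draws B cells, had 134 and 0 counts in Lgr6-negative libraries and none in Lgr6-positive libraries. The remaining ones had low counts, with Ccl19 at 6 and 0 counts in Lgr6-positive libraries against 17 and 0 in Lgr6-negative libraries, Ccl21c at 0 and 1 against none, Ccr4 at 1 and 0 against none, and Ccr3 at none against 1 and 1. The homing receptors Ccr9, Cxcr6 and Ccr8 had no counts in Lgr6-positive libraries, against 50 and 3, 25 and 5, and 0 and 8 in Lgr6-negative libraries.

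Genes that act downstream of chemokine receptors were mostly lower or did not pass. Of 25 genes that carry out leukocyte migration, 16 were lower in Lgr6-positive cells, 9 did not pass and none was higher, with a median log2 fold change of -3.50 against 0.10 for all tested genes. Itga4, an integrin chain for leukocyte arrest, was at -5.79 (SE 0.49, adjusted p = 5.28e-04), Dock2, an activator of Rac in leukocytes, at -5.04 (SE 0.63, adjusted p = 0.00223), Itgam at -3.73 (SE 0.54, adjusted p = 0.00428) and the actin regulator Coro1a at -4.59 (SE 0.67, adjusted p = 0.00435). Of 23 genes for receptor coupling and its regulation, 4 were lower, 19 did not pass and none was higher (median -1.97). The lower ones were the G protein subunit gene Gngt2 (-5.58, SE 0.46), the G protein regulator Rgs2 (-3.19, SE 0.46), the phosphoinositide kinase subunit gene Pik3r5 (-2.88, SE 0.60) and Adrbk1 (-3.04, SE 0.67), whose kinase phosphorylates active receptors, at adjusted p-values between 5.28e-04 and 0.0263. Other chemoattractant receptors had 7 of 16 genes lower, none higher and 9 not past the threshold (median -4.84, or -4.49 with genes without counts at their bound), among them the formyl peptide receptor gene Fpr2 with 0 and 3 counts in Lgr6-positive libraries, against 510 and 828 in Lgr6-negative libraries.

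Genes upstream of inducible chemokines were also described. Of 16 cytokine and receptor genes that induce chemokines, 6 were lower, 10 did not pass and none was higher (median -2.69), led by Il1b, the interleukin-1 beta gene, at -5.71 (SE 0.30, adjusted p = 8.24e-05), Il17ra (-3.91, SE 0.44, adjusted p = 0.00143) and Tlr2 (-4.07, SE 0.49, adjusted p = 0.00194). Of 16 genes for NF-κB subunits, their kinase complex and their regulators, 4 were lower, 12 did not pass and none was higher (median -2.12). The lower ones were the subunit gene Rel (-3.12, SE 0.43), the feedback inhibitor Tnfaip3 (-2.20, SE 0.36), Nfkbiz (-1.26, SE 0.30) and Nfkbib (-3.08, SE 0.79), at adjusted p-values between 0.00339 and 0.0439. In the coupling, chemoattractant receptor and inducing lists, 1 gene each was higher at an unadjusted p under 0.05 in edgeR, as at an adjusted p under 0.05 in DESeq2, and in the migration and NF-κB lists none was. Of 10 tested genes for platelet chemokines and chemokine-processing enzymes, the carboxypeptidase gene Cpd was higher (1.75, SE 0.46, adjusted p = 0.0488), the neutrophil protease genes Elane and Prtn3 were lower and 7 did not pass (median 0.46).

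Cell type lists moved with these genes. Lower in Lgr6-positive cells were 5 of 7 monocyte, 3 of 6 neutrophil and 4 of 5 natural killer cell genes, with medians of -4.18, -3.03 and -10.81 (-7.01 with genes without counts at their bound), and none of these was higher at an adjusted p under 0.05. The neutrophil gene Retnlg ran against its list, with 79 and 149 counts in Lgr6-positive libraries against none in Lgr6-negative libraries, at least 28.5-fold higher (adjusted p = 0.0725), and 1 neutrophil gene was higher at an unadjusted p under 0.05 in edgeR and at an adjusted p under 0.05 in DESeq2 and in limma-voom. None of 5 macrophage, 3 dendritic cell, 4 T cell, 3 B cell and 1 platelet genes passed in either direction, with medians of 1.91, -2.87, -8.71 (-4.47 at the bound), -2.14 and 4.54, and no mast cell gene was tested. Of these 16 genes, 2 were higher and 5 lower at an unadjusted p under 0.05 in edgeR, and at an adjusted p under 0.05, 2 were higher and 4 lower in DESeq2, and 0 were higher and 3 lower in limma-voom. T cell genes were 4 of those lower at the unadjusted p, 3 in DESeq2 and 3 in limma-voom. The 2 higher were macrophage genes, and the other lower 1 in edgeR and DESeq2 was a dendritic cell gene. Higher were 4 of 6 endothelial, 2 of 5 fibroblast, 3 of 5 basal and 5 of 7 luminal genes, with medians of 2.95, 3.45, 3.95 and 4.60, and none of these was lower. The summed level of the neutrophil list was 187 and 149.6 CPM in Lgr6-positive libraries, against 1318 and 1361 CPM in Lgr6-negative libraries, and that of the basal list was 1740 and 1942 CPM, against 184 and 185 CPM. The part of any cell type in the levels of the chemokine and receptor genes was not tested.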

How the data were processed

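RNA was sequenced from sorted mammary cells after amplification of a small amount of RNA, as paired-end reads, per the labels' protocols. The deposited values are the authors' expected counts for each gene in 1 table, with no scaling for depth. The submitters' processing notes name RSEM 1.2.22, STAR 2.4.2a and mm10. No source used here states the settings, the annotation or the strand. Expected counts were rounded to whole numbers. Library totals ran from 6819127 to 7167465 per library. Chi-square over its degrees of freedom between the 2 libraries of a population was 100.9 for Lgr6-positive and 86.4 for Lgr6-negative cells, so neither pair holds the same counts; amplified reads exceed counting noise even between technical repeats, so this does not show separate samples.

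The test was edgeR 4.0.16 under R 4.3.3 (TMM factors 1.21, 1.13, 0.929 and 0.787; filterByExpr with a minimum count of 10 and total of 15; glmQLFit and glmQLFTest on group alone; Benjamini-Hochberg over 11661 genes). The steps were tested on simulated data. SE was computed as |log2 fold change| / √F. Bounds use 3 counts per library. Reads were amplified with no molecular identifiers stated, so bounds and intervals cover counting error alone. DESeq2 1.42.0 and limma 3.58.1 (voom) served as alternatives. Positions, exonic bases and overlaps were read from GENCODE M21 on GRCm38 (mm10) by gene symbol.

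Every ligand and receptor matched by symbol entered the counts and summaries, and 1 is not reported here by itself. From each of 19 other lists, up to 4 tested genes with the smallest p-values could be named. Gp9, Gp1bb and Treml1 were named outside this rule, to give the whole platelet list. Fn1 and Ace were also named outside it, for their levels in the monocyte sum. Members and lists were chosen with earlier results of these data known.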

Additional observations from a re-analysis of the deposited data

How the results depend on the processing

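Of the members, 12 ligands and receptors that passed kept direction and significance under all alternatives, and the exceptions were Ackr1 and Cxcl15, as given above. Ligands called higher numbered 2 as reported, 4 without a filter and 5 in DESeq2, and from 2 to 4 when single libraries were left out, the most without Lgr6-positive replicate 1. Ligands called lower numbered 5 as reported and from 6 to 9 with 1 library left out, with 9 and 8 without Lgr6-positive replicate 1 or 2. Receptors called higher numbered 2 as reported and 1 in limma-voom, with the replicate block and on leaving out Lgr6-positive replicate 1 or either Lgr6-negative replicate (1 to 2 with 1 library left out). Receptors called lower numbered 5, with 6 in limma-voom.

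Over all genes, 524 were higher and 533 lower as reported, with 967 and 854 without a filter, 1412 and 1003 in DESeq2, and 628 and 327 with library size alone, a scaling under which the median shift in fold change was 0.45 and 65.8% of calls were higher, not 49.6%, but which left all members on their side of 0 and of the threshold. With 1 library left out, 678 to 956 were higher and 540 to 1030 lower.

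Libraries of the same replicate number had a correlation of deviations of -0.020, which cannot show whether replicate numbers pair the libraries. The replicate block gave 678 higher and 662 lower genes. It added Ccl2 (-5.53) and Cx3cl1 (5.24) and lost Ackr1. Fold changes reversed for 3 ligands with overlapping libraries. Ccl11 was at -2.32 in limma-voom and -2.08 with the block, and from -8.01 to 1.61 with 1 library left out (negative without Lgr6-positive replicate 1). Ccl22 ran from -0.79 to 2.54 with 1 library left out (-0.79 and -0.39 without Lgr6-positive or Lgr6-negative replicate 2). Ccl27a was at -0.16 in limma-voom and ran from -7.49 to 7.75 with 1 library left out (-7.49 and -0.87 without Lgr6-positive replicate 1 or Lgr6-negative replicate 2). The causes were not tested. With 1 library left in a population, its spread was taken from the other, so passing on leaving out a library is no support for a member. Depth and unequal pairs of libraries limit members below the filter.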
